A study of Mus musculus with 13 samples.

Results

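HLM006474 is a small molecule known as an inhibitor of the E2F transcription factors, and its effect on cultured mouse astrocytes is described here through every gene that the authors listed as changed by it after 24 hours. The members are all 856 genes of the authors' deposited table for HLM006474 against vehicle, out of 1592 distinct gene names in the study's 3 deposited tables. Of these 856 genes, 216 were higher and 640 were lower than in vehicle, so 74.8% were lower. All cultures were primary astrocytes of the C57BL/6 strain, wild type in genotype, taken from the retinas and optic nerves at post natal day 1-3 and grown in DMEM/F12 medium with 10% FBS (serum). HLM006474 was given to 3 samples and vehicle to 4, out of 13 samples that also hold 3 treated with SB431542 and 3 with Ro5-3335, and the doses were not stated in any source used. The labels do not tie samples to animals or cultures, so the p-values speak only to how far these samples spread, and part of that spread may be technical. The libraries were made from total RNA. Values of single samples and library depths were not analysed here, because the authors' deposited table holds only a summary for each gene.

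E2F proteins bind DNA with DP partner proteins and are held in check by the retinoblastoma family until a cell commits to divide. Released E2F activates the genes that license replication origins, supply nucleotides and copy chromatin, and also the genes of E2F7 and E2F8, repressors that later shut the program down. Another program met below is that of NRF2, a transcription factor that electrophiles and oxidants free from its inhibitor KEAP1, and that raises glutathione, thioredoxin, NADPH and iron-handling enzymes through antioxidant response elements in DNA. Glia in neonatal culture still divide, and such cultures can hold microglia, oligodendrocyte precursors and contractile mesenchymal cells beside astrocytes.

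Each gene has a pair of values. The first is the log2 fold change of HLM006474 against vehicle, with its standard error after the ± sign, as DESeq2 estimated it for the authors. The second is the mean normalised count over the libraries of that fit. It was the same number for each gene that also appears in another of the 3 tables, so it was taken over more samples than the 7 compared here. It is not divided by gene length, and it is used only to show how many reads stand behind a value. Every listed gene had an adjusted p under 0.05 and a change of about 1.5-fold or more: the smallest listed values in the authors' deposited table were 0.58 above and -0.58 below vehicle. A gene that is not listed was untested, or missed the limit on p, or missed the limit on fold, and these cases cannot be told apart.

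From the ranks that the paired p-values imply, 15169 genes were tested, of which the listed genes are 5.64%. The listed genes with higher values are 1.42% of the genes tested, and those with lower values are 4.22%. The last listed gene had rank 3872 by p, so the listed genes are 22.1% of the genes with an adjusted p at least as small. The fold limit thus left out most genes that passed on p alone.

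The listed genes with the most reads were of other kinds than replication genes. In the authors' deposited table, 13 of the listed genes had a mean count of at least 10000, and 8 of them rose. The risers with their log2 values in the authors' deposited table were the ferritin subunits Ftl1 (0.97 ± 0.05) and Fth1 (0.74 ± 0.07), the metallothioneins Mt1 (0.76 ± 0.07) and Mt2 (0.69 ± 0.07), Ephx1 (0.72 ± 0.06), Sqstm1 (0.62 ± 0.06), Gstm1 (0.60 ± 0.05) and Lyz2 (1.08 ± 0.18). The fallers in the authors' deposited table were smooth muscle actin Acta2 (-1.09 ± 0.08), Tagln (-0.88 ± 0.07), the growth factor binding protein Igfbp5 (-0.83 ± 0.06), the tubulin Tubb5 (-0.65 ± 0.05) and the fatty acid binding protein Fabp7 (-0.64 ± 0.06). None of these 13 is on a replication, repair or mitosis list. The share of lower genes differed along the range of mean counts: it was 75.7%, 82.7%, 79.0% and 61.7% over 4 bins of equal size, from the lowest to the highest mean counts, in the authors' deposited table. Among the 118 listed genes with a mean count of at least 1000, 54 rose and 64 fell.

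**Figure D1:**
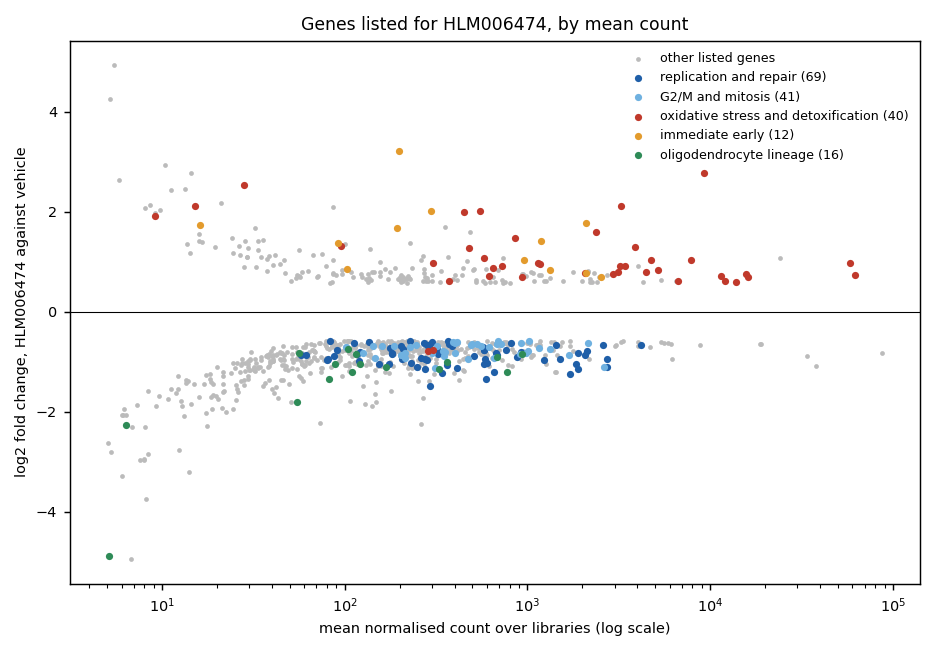
Log2 fold change of HLM006474 against vehicle (vertical axis) by mean normalised count on a log scale (horizontal axis) for the listed genes, 1 point per gene, coloured by gene list; Galnt2l, at -22.22, lies outside the axis. Replication and repair genes all lie below 0, and 38 of the 40 oxidative stress and detoxification genes lie above it.

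Changes were moderate for most genes. The median in the authors' deposited table was 0.80 for the risers and -0.84 for the fallers, and 283 of the listed genes (74 higher, 209 lower) changed at least 2-fold. A change of 4-fold or more was listed for 44 genes, of which 9 had a mean count of at least 50. The values over 10-fold belong to 6 genes, 5 of them with mean counts under 10, and their folds carry SEs above 1 in the authors' deposited table. The sixth, Galnt2l, is listed at -22.22 ± 4.14 with a mean count of 164, a size that cannot be read as a measured fold. In all, 185 listed genes had a mean count under 50. Just inside the fold limit stood Tut4, Gm14419, Slc17a5, Zfp563 and Tmem104 at 0.58, and Psmc3ip, Cdh4, Cdc7, 9930012K11Rik and Atad5 at -0.58 in the authors' deposited table, while genes just outside are not listed.

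Promoters of the licensing genes are shown first, since among the lists checked they held E2F words most often. RefSeq promoter windows (GRCm38.p6, 250 bases before to 50 after the start) were searched on both strands for the E2F core words TTTCCCGC, TTTGGCGC, TTTGCCGC and TTTCGCGC. Of the 10 licensing and MCM genes in the authors' deposited table, 9 had a promoter entry, and 7 of the 9 (77.8%) held such a word, beside 3.29% of 17492 protein-coding genes with an entry. More than 1 match was present in 4 of them, and overlapping matches were counted separately. The median GC content was 57.3% in these promoters and 56.3% in all protein-coding ones. Cdc6 and Mcm6 are shown whole, since they had the largest fall among the licensing genes and the most matches, and the other 5 as the 49 bases around the first match. Capitals mark the matches, and all read 5′ to 3′ on the gene's strand.
Cdc6: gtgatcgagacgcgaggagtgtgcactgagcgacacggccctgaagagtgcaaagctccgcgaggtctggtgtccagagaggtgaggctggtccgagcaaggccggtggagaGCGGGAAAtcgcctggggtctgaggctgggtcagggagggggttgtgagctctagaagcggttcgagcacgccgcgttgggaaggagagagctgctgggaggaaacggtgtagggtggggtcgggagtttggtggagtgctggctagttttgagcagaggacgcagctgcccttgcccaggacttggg
Mcm6: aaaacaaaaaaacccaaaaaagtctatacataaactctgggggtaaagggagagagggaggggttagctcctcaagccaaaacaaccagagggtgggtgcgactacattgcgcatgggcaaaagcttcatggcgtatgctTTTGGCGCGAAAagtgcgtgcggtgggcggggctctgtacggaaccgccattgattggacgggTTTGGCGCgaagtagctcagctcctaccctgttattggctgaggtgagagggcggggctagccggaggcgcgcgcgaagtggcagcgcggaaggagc
Mcm3: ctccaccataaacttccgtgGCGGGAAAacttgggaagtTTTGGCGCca
Mcm5: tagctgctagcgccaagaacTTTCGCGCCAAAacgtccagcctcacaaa
Mcm7: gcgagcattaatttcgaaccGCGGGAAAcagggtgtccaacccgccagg
Cdt1: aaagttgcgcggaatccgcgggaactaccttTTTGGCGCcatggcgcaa
Orc1: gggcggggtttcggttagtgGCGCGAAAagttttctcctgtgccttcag

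The Cdc6 window is chr11:98907901-98908200 on the plus strand, with its match starting 138 bases before the start. The Mcm6 window is chr1:128359656-128359955 on the minus strand, with 3 matches between 110 and 47 bases before the start, 2 of them overlapping. In Mcm5 (chr8:75109259-75109558, plus strand) 2 matches overlap 153 and 149 bases before the start, and in Mcm3 (chr1:20820263-20820562, minus strand) 2 matches begin 19 and 38 bases after it. The Mcm7 window (chr5:138171834-138172133, minus strand) has its matches 165 bases before and 16 after the start. Cdt1 (chr8:122567765-122568064, plus strand) carries 1 match 32 bases after the start, and Orc1 (chr4:108579204-108579503, plus strand) 1 match 27 bases before it. Each start is that of the promoter entry and can lie inside the gene. For Orc1, which spans chr4:108575705-108616030, and Cdc6, which spans chr11:98907709-98923942, the whole window lies inside the gene. Most of the Mcm7 window also lies inside its gene, which spans chr5:138164583-138172111. Mcm2 and Mcm10 had no match in their windows. Of the other listed groups with entries for at least 80% of members, the word was in 6 of 19 origin and fork genes (31.6%), 3 of 5 chromatin genes, 4 of 33 mitosis genes (12.1%), 1 of 4 reactive astrocyte genes and 0 of 5 nucleotide genes. It was in 0 of 4 mismatch repair and checkpoint genes and 0 of 9 microglia and macrophage genes, and in none of the other such groups. A match is a string of letters and shows no binding, and no match says only that these letters are absent from the window. For the listed lower genes as a whole the check is void, since 72.9% of them had an entry.

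DNA replication genes fell together. Of 18 genes on a list of origin licensing and MCM helicase genes, 10 were lower and 0 were higher in the authors' deposited table, with a median of -1.07, beside -0.74 for all listed genes. List sizes here and below include genes that may not have been tested. Cdc6, which loads the MCM ring onto origins, had the largest fall of the group at -1.49 ± 0.13, leaving 35.6% of the vehicle level (mean count 294, DESeq2 adjusted p = 4.46e-28 in the authors' deposited table). Its partner loader Cdt1 stood at -1.12 ± 0.11 and the origin recognition subunit Orc1 at -0.87 ± 0.28 in the authors' deposited table. All 6 subunits of the MCM2-7 ring fell. Their values in the authors' deposited table were Mcm3 -1.14 ± 0.11, Mcm6 -1.10 ± 0.11, Mcm2 -1.05 ± 0.06, Mcm5 -0.95 ± 0.07, Mcm4 -0.82 ± 0.06 and Mcm7 -0.78 ± 0.06. Neighbours in this order lie within 2 SEs of their difference, taken as independent, so the order of adjacent subunits is not resolved. Mcm10, which helps activate the ring, stood at -1.15 ± 0.18 in the authors' deposited table. Not listed were Mcm8, Mcmbp, the licensing inhibitor Gmnn and the origin recognition genes Orc2 to Orc6.

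Replication fork genes fell too. Of 42 genes for origin firing and the fork, 23 were lower and 0 higher in the authors' deposited table, with a median of -0.85. Helicase partners Cdc45 (-0.75 ± 0.12), Gins1 (-0.72 ± 0.18) and Gins2 (-0.86 ± 0.11) fell in the authors' deposited table. The polymerase genes were listed at -0.94 ± 0.19 for Pole, -0.88 ± 0.10 for Pold1, -0.80 ± 0.20 for Pole2, -0.68 ± 0.09 for Pola2 and -0.63 ± 0.10 for Pola1 in the authors' deposited table. For joining and processing of the lagging strand, Lig1 was at -0.96 ± 0.08 and Fen1 at -0.80 ± 0.08 in the authors' deposited table. Fork protection genes Timeless (-1.06 ± 0.10) and Clspn (-1.02 ± 0.12) were among the 3 lowest of the group in the authors' deposited table. Pcna, the sliding clamp, was not listed, whereas Pclaf, which encodes a PCNA-binding factor, fell 2.30-fold with a mean count of 1428 in the authors' deposited table.

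Nucleotide supply and chromatin copying followed. Thymidine kinase Tk1 fell by 1.34 ± 0.12, and the ribonucleotide reductase subunits Rrm2 and Rrm1 had values of -0.94 ± 0.08 and -0.67 ± 0.07 in the authors' deposited table. Thymidylate synthase Tyms was at -0.76 ± 0.10 and Dut at -0.70 ± 0.11 in the authors' deposited table, and all 6 listed of 25 nucleotide genes were lower. Among 26 genes for copying chromatin, 6 were lower and 0 higher in the authors' deposited table. Uhrf1, which guides maintenance methylation, stood at -1.24 ± 0.08 and the methyltransferase Dnmt1 itself at -0.66 ± 0.07 in the authors' deposited table. The histone chaperone subunits Chaf1b (-1.22 ± 0.12) and Chaf1a (-0.83 ± 0.13), the remodeller Hells (-1.21 ± 0.18) and the lamin Lmnb1 (-0.86 ± 0.06) were the others in the authors' deposited table. None of 30 replication-dependent histone genes on the list was in the table. The H4 genes Hist1h4m (0.78 ± 0.26) and Hist1h4n (0.72 ± 0.27) were higher in the authors' deposited table, with mean counts near 50. They are not on that list, which holds Hist1h4d and Hist1h4i of the same Hist1 series. As near-identical copies, their reads may be split.

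Repair genes tied to replication also fell. Of 45 homologous recombination and Fanconi genes, 20 were lower and 0 higher in the authors' deposited table, with a median of -0.80. Rad54l, a motor protein of recombination, stood at -0.84 ± 0.10, the nuclease Exo1 at -1.10 ± 0.19 and Fancd2 at -0.67 ± 0.17 in the authors' deposited table. Bard1 (-0.94 ± 0.12) and Brip1 (-0.92 ± 0.16), both partners of BRCA1, were lower in the authors' deposited table, while Brca1, Brca2 and Palb2 were not listed. Of 23 mismatch repair and checkpoint genes, 4 were listed in the authors' deposited table, all lower: Ung -1.02 ± 0.21, Neil3 -0.98 ± 0.17, Chek1 -0.74 ± 0.15 and Rad18 -0.62 ± 0.14. Counted once each, 69 of 179 replication and repair genes (38.5%) were listed as lower, beside 4.22% of all genes tested, and 0 as higher. The histone list, with 0 listed of 30, is not among the 179, nor are the risers Hist1h4m and Hist1h4n.

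**Figure D2:**
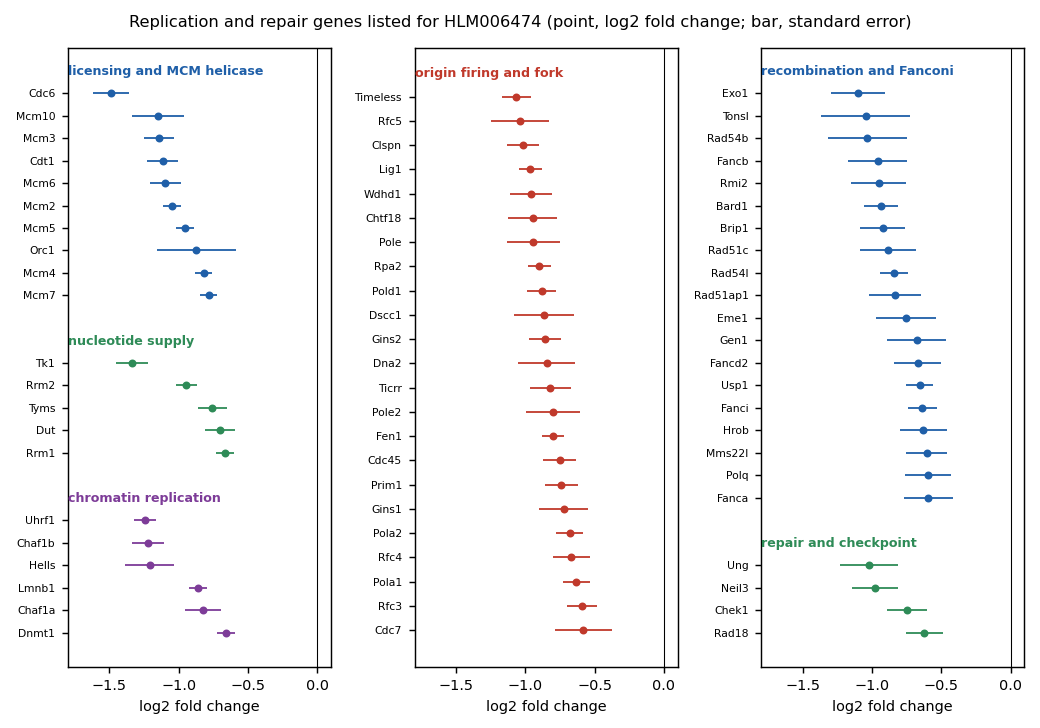
Log2 fold change of HLM006474 against vehicle (horizontal axis, bars 1 standard error) for 67 of the 69 replication and repair genes in the deposited table, grouped by role. All points lie left of 0, and Cdc6, at -1.49, lies farthest.

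Within the E2F family itself, 3 of the transcription factor genes were listed. E2f8 stood at -1.23 ± 0.13, E2f7 at -0.75 ± 0.24 and the activator E2f2 at 50% of vehicle in the authors' deposited table. E2f1, E2f3, E2f4, E2f5 and E2f6, the DP partners Tfdp1 and Tfdp2, and the retinoblastoma family genes Rb1, Rbl1 and Rbl2 were not listed. The table measures RNA and does not show how much E2F protein was bound to DNA. Of the 39 genes of the E2F and G1/S list, 8 were listed in the authors' deposited table, all lower. Mybl2, a regulator of later cell cycle genes, stood at -1.25 ± 0.16, Mycn at -1.28 ± 0.25, cyclin E2 (Ccne2) at -0.77 ± 0.16 and Cdk1 at -0.68 ± 0.10 in the authors' deposited table. The eighth, Cdkn1c, encodes a cyclin-dependent kinase inhibitor that holds cells out of cycle, and it fell by 1.38 ± 0.23 in the authors' deposited table, so this list held members of opposite roles that moved the same way. D-type cyclins, Cdk2, Cdk4 and Cdk6, Cdkn1a, Cdkn1b and Myc were not listed.

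Mitosis genes fell as well. On a list of 103 G2/M genes, 41 (39.8%) were lower and 0 higher in the authors' deposited table, with a median of -0.71, and 2 of them changed at least 2-fold. Those 2 were the proliferation marker Mki67 (-1.11 ± 0.09, mean count 2636) and Cdca7 (-1.12 ± 0.12) in the authors' deposited table. Cyclin A2 (Ccna2) stood at -0.85 ± 0.06, the kinases Plk1 and Aurkb at -0.84 ± 0.12 and -0.92 ± 0.11, and the mitotic transcription factor Foxm1 at -0.79 ± 0.12 in the authors' deposited table. Kinetochore genes included Cenpk at -0.92 ± 0.17, Spc24 at -0.88 ± 0.16 and Knl1 at -0.81 ± 0.22 in the authors' deposited table. Close to the fold limit were Ndc80 at -0.60 ± 0.11 and Nuf2 at -0.58 ± 0.09 in the authors' deposited table. Ccnb1, Ccnb2, Cdc20, Top2a, Tpx2 and Cenpf were not listed. In bulk RNA, fewer cells of a type or phase and less RNA per cell cannot be told apart, and this holds for every group below.

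Genes of oxidative defence rose. Of 122 genes on 4 lists (thiol and glutathione, heme and iron, NADPH, detoxification), 38 were higher and 2 lower in the authors' deposited table, beside 1.42% higher among all genes tested. Hmox1, the heme-degrading enzyme, rose 6.83-fold (2.77 ± 0.15, mean count 9262, DESeq2 adjusted p = 3.28e-72 in the authors' deposited table). Sulfiredoxin Srxn1, which restores oxidised peroxiredoxins, rose 4.34-fold (2.12 ± 0.10, DESeq2 adjusted p = 1.06e-93 in the authors' deposited table), and the quinone reductase Nqo1 rose 3.97-fold (1.99 ± 0.13). For comparison, the median of all 216 risers was 0.80 in the authors' deposited table.

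Several genes of glutathione synthesis rose. The cystine carrier Slc7a11 stood at 1.48 ± 0.23, and both subunits of the rate-limiting ligase rose, Gclm by 1.31 ± 0.08 and Gclc by 0.92 ± 0.05 in the authors' deposited table. Thioredoxin reductase Txnrd1 was at 1.03 ± 0.06 with a mean count of 7815 in the authors' deposited table. Of conjugating and exporting proteins, Mgst1 stood at 0.76 ± 0.09, Abcc4 at 0.98 ± 0.10, Abcc3 at 0.72 ± 0.11 and Abcc1 at 0.69 ± 0.08 in the authors' deposited table. Gsta3 is listed at 2.53 ± 0.41 with a mean count of 28.3, and Gsta4 at 0.78 ± 0.09 with 2070 in the authors' deposited table; reads of such related genes may be split. Gstt1 was the exception among 15 listed thiol genes, at -0.77 ± 0.14 in the authors' deposited table. The regulators Nfe2l2, which encodes NRF2, and Keap1 were not listed, nor were the glutathione synthetase Gss, Gsr, Txn1, Prdx1 and Gpx4.

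Iron and heme genes moved on several sides of the pathway. Blvrb (1.28 ± 0.13), a biliverdin and flavin reductase, and Alas1 (0.95 ± 0.06), the first step of heme synthesis, both rose in the authors' deposited table. Storage rose with Ftl1 and Fth1, whose values are given above. The iron exporter ferroportin, Slc40a1, stood at 2.02 ± 0.15 and the iron importer Tfrc at 1.59 ± 0.31 in the authors' deposited table, so genes for opposite directions of iron transport rose together. Steap4, a metal reductase, fell by 0.78 ± 0.16 in the authors' deposited table, and the other biliverdin reductase gene, Blvra, was not listed. Processed copies of ferritin genes exist, and the pseudogene Ftl1-ps1 is itself listed at 1.10 ± 0.41 with a mean count of 29.3 in the authors' deposited table, so ferritin reads may be shared among copies.

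Of 13 genes of NADPH supply, 3 rose. The pentose phosphate enzymes G6pdx (0.80 ± 0.06), Pgd (0.83 ± 0.07) and Taldo1 (0.79 ± 0.07) lay within 1 SE of each other in the authors' deposited table, and the other 10 genes of that list, Me1, Idh1 and Tkt among them, were not listed. All 14 listed of 41 detoxification genes were higher. Catalase (Cat) stood at 0.93 ± 0.07, Esd at 1.03 ± 0.07, the aldehyde oxidase Aox1 at 1.08 ± 0.10 and Ptgr1 at 0.87 ± 0.12 in the authors' deposited table. The aryl hydrocarbon receptor target Cyp1b1 rose by 0.61 ± 0.03, and Cyp1a1 was not listed. Zinc export and binding moved as well: Slc30a1 was at 0.74 ± 0.05 in the authors' deposited table, beside the values of the related genes Mt1 and Mt2 above.

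Promoters of this group were searched for the core of the antioxidant response element, TGACNNNGC, on both strands. It was present in 10 of 33 listed oxidative and detoxification genes with an entry (30.3%), beside 14.8% of protein-coding genes, and an E2F word was in 0 of the 33. Counting 250 bases before the start alone, the shares were 24.2% and 12%. The lists pooled here differed. In the full window, 2 of 3 NADPH genes held the word, but 1 of 12 detoxification genes (8.33%), below the share of protein-coding genes. It was in 6 of 11 thiol and glutathione genes and 1 of 7 heme and iron genes. Only 73.3% and 77.8% of the listed members of those lists had an entry, too few for a check of either list alone. The words of the 5 genes shown are from the glutathione, thioredoxin and NADPH steps above, with Gclm whole, the rest as 49 bases and the matches in capitals.
Gclm: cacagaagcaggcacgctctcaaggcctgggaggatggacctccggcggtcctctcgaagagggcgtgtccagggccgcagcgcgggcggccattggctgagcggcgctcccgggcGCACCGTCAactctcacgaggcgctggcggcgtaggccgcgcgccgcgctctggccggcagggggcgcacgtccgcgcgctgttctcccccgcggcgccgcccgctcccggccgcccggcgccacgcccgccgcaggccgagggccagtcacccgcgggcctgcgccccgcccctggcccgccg
Srxn1: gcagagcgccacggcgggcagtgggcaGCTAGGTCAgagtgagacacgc
Txnrd1: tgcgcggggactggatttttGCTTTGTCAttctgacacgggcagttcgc
G6pdx: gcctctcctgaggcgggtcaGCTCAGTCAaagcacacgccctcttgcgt
Pgd: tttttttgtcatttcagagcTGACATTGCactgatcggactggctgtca

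The Gclm window is chr3:122245307-122245606 on the plus strand, with its match 134 bases before the start. Srxn1 (chr2:152105274-152105573, plus strand) has it 28 bases after the start, Txnrd1 (chr10:82858956-82859255, plus strand) 92 bases before, G6pdx (chrX:74428831-74429130, minus strand) 57 bases before and Pgd (chr4:149166033-149166332, minus strand) 3 bases after. The Txnrd1 window lies inside its gene, which spans chr10:82833951-82897724, and the Pgd window lies inside its own, which spans chr4:149149991-149166705. The word is common, and 1 of the 9 licensing promoters, that of Cdc6, holds it too.

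Stress response genes rose in part. Of 40 genes of the integrated stress and unfolded protein response, 7 were higher and 0 lower in the authors' deposited table, with Trib3 at 1.15 ± 0.29, Gdf15 at 1.26 ± 0.21, Ddit3 at 0.73 ± 0.13 and Atf5 at 0.70 ± 0.11. Slc7a11, Atf3 and Gdf15 are on 2 of the lists described here, and 4 of the 7 were on this list alone. None of 19 heat shock genes was listed, beside 5.64% of all genes tested, a share at which a list this short can hold 0. Of 27 p53 targets, Mdm2 (0.65 ± 0.07), Trp53inp1 (0.60 ± 0.06) and Gdf15 were higher in the authors' deposited table, and Cdkn1a was not listed.

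Immediate early genes, which respond to stimuli without new protein synthesis, had the highest median of the lists with more than 3 listed members. Of 37, 12 were higher and 0 lower in the authors' deposited table, with a median of 1.39. Fosb rose 9.31-fold (3.22 ± 0.26), and the zinc finger factors Egr2 (2.01 ± 0.19), Egr3 (1.68 ± 0.17) and Egr1 (1.41 ± 0.09) and the nuclear receptor Nr4a1 (1.78 ± 0.20) rose in the authors' deposited table. Fosl1 stood at 1.37 ± 0.30, Atf3 at 1.03 ± 0.09, Klf10 at 0.84 ± 0.08 and Arc at 0.85 ± 0.20 in the authors' deposited table. The remaining 25, Fos and Jun among them, were not listed.

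**Figure D3:**
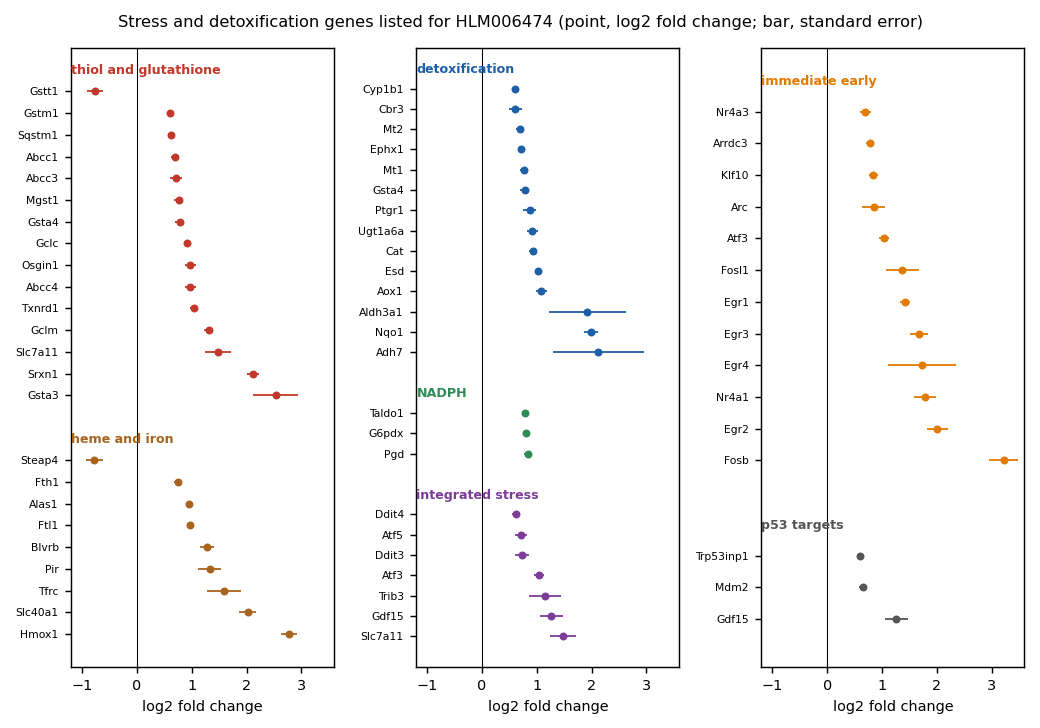
Log2 fold change of HLM006474 against vehicle (horizontal axis, bars 1 standard error) for listed genes of oxidative defence, iron, detoxification, NADPH, stress, immediate early and p53 lists. Fosb at 3.22 and Hmox1 at 2.77 lie farthest right, and Gstt1 and Steap4 are the points left of 0.

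Contractile genes fell. Of 34, 11 were lower and 2 higher in the authors' deposited table, with a median of -0.88. Acta2, given above, fell to 47.1% and Tagln to 54.4% of vehicle in the authors' deposited table. Tpm2 fell 2.30-fold, with Actg2 at -1.88 ± 0.20, the myosin light chain Myl9 at -0.94 ± 0.07, the kinase Mylk at -1.19 ± 0.29 and the calponin gene Cnn2 had -0.67 ± 0.04 in the authors' deposited table. The risers Des (2.19 ± 0.74) and Ankrd1 (2.46 ± 0.92) had mean counts of 21.0 and 13.3 in the authors' deposited table, and neither was listed at an adjusted p under 0.01. The same held for the faller Myh11 (-1.37 ± 0.54, mean count 13.6 in the authors' deposited table).

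Matrix genes fell in part. Of 85 collagen and matrix genes, 10 (11.8%) were lower and 0 higher in the authors' deposited table, beside 4.22% lower among all genes tested, and they included Col14a1 (-1.16 ± 0.14), Fbn2 (-1.25 ± 0.19), Col8a2 (-0.90 ± 0.08) and elastin Eln (-0.69 ± 0.10). Of 61 TGF-beta and BMP genes, 6 were lower and 1 higher in the authors' deposited table, with the target Tgfbi at -1.04 ± 0.07 and the ligand Inhba at -0.99 ± 0.26. Sonic hedgehog (Shh) stood at -0.80 ± 0.11 and the trophic factor Ndnf at -1.73 ± 0.29, while Vegfa was at 0.61 ± 0.10 in the authors' deposited table. Of 38 sterol and fatty acid genes, Fdps (-0.79 ± 0.06), Lss (-0.78 ± 0.16) and Nsdhl (-0.63 ± 0.07), all of the sterol branch, were lower in the authors' deposited table, and Mylip, which promotes loss of the LDL receptor, was higher at 0.62 ± 0.12. The lysosomal acid lipase Lipa rose by 0.91 ± 0.04, with an adjusted p of 5.83e-93 by DESeq2 in the authors' deposited table. Lipa and Atp6v0d2, the latter on a mean count of 15.8, were the 2 listed of 36 lysosome genes, both higher. That is 5.56%, near the 5.64% listed among all genes tested. Of 110 ion channel genes, 16 (14.5%) were lower and 0 higher in the authors' deposited table, with a median of -0.94. They include the inward rectifiers Kcnj16 (-0.69 ± 0.13) and Kcnj13 (-0.71 ± 0.25), the calcium channel Cacna1c (-0.76 ± 0.19) and the calcium-activated potassium channel Kcnn4 (-1.09 ± 0.15) in the authors' deposited table. None of 19 circadian genes was listed, and at the 5.64% of all genes tested a list this short can hold 0.

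Markers of other cell types changed too. Of 43 oligodendrocyte lineage markers, 16 (37.2%) were lower and 0 higher in the authors' deposited table, with a median of -1.08. Among all genes tested, 4.22% were lower. The lineage factor Sox10 stood at -1.10 ± 0.18, the precursor markers Pdgfra and Cspg4 at -0.84 ± 0.14 and -1.01 ± 0.14, and the myelin gene Mbp at -1.20 ± 0.35 in the authors' deposited table. The precursor markers are also expressed by perivascular cells, and both are on the list of 38 endothelial, pericyte and fibroblast markers. Of that list, 4 (10.5%) were lower, these 2 included, and 0 higher. The other 34, Pecam1, Cdh5, Pdgfrb and Col1a1 among them, were not listed. Opalin (-4.89 ± 1.42) and Fa2h (-2.27 ± 0.89) rest on mean counts of 5.15 and 6.38 in the authors' deposited table. The other 27 genes of the oligodendrocyte list, Olig1, Olig2, Myrf, Nkx2-2, Mog, Cnp and Gpr17 among them, were not listed. Whether a change in the share of dividing precursors took part in the fall of the replication genes was not tested.

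Microglia and macrophage markers split. Of 47, 5 were higher and 6 lower in the authors' deposited table, so 23.4% were listed, beside 5.64% of all genes tested. Higher were the lysozyme Lyz2 (given above), the scavenger receptor Cd36 (1.07 ± 0.09) and the lectin receptors Clec4d (1.70 ± 0.13), Clec7a (1.03 ± 0.15) and Clec4n (0.79 ± 0.29) in the authors' deposited table. Lower were Tmem119 (-1.08 ± 0.07), P2ry12 (-0.82 ± 0.17), Olfml3 (-0.75 ± 0.07), Fcrls (-0.65 ± 0.06), Aif1 (-0.89 ± 0.15) and Tlr2 (-0.84 ± 0.14) in the authors' deposited table. The first 4 of these are markers of resting microglia. Chemokine genes split as well, with Ccl12 at -2.21 ± 0.31, Ccl2 at -1.06 ± 0.24 and Tnf at -1.10 ± 0.35, beside Ccl9 at 1.02 ± 0.20 and Ccl6 at 0.72 ± 0.18 in the authors' deposited table. The phagosomal metal transporter Slc11a1 and the macrophage elastase Mmp12 had values of 1.60 ± 0.19 and 2.09 ± 0.27 in the authors' deposited table. Transcripts of myeloid marker genes were thus present in these cultures. Their part in the rise of iron genes and of the lysosomal lipase gene Lipa was not tested.

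Most of the astrocyte genes checked were not listed. Of 46 astrocyte and Müller glia genes, 4 (8.7%) were lower and 0 higher in the authors' deposited table, beside 4.22% lower among all genes tested. Among these 4 were Thbs2 -0.68 ± 0.06, Fabp7 -0.64 ± 0.06 and Slc6a11 -0.64 ± 0.25 in the authors' deposited table. Gfap, Aqp4, Slc1a3 and S100b were not listed, so the table gives no level for them and the cell type label could not be checked against them. Of 37 reactive astrocyte genes, 3 were higher and 2 lower in the authors' deposited table, so 13.5% were listed. Of 48 interferon response genes, 1 was higher and 1 lower. Those are 4.17%, near the 5.64% listed among all genes tested.

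**Figure D4:**
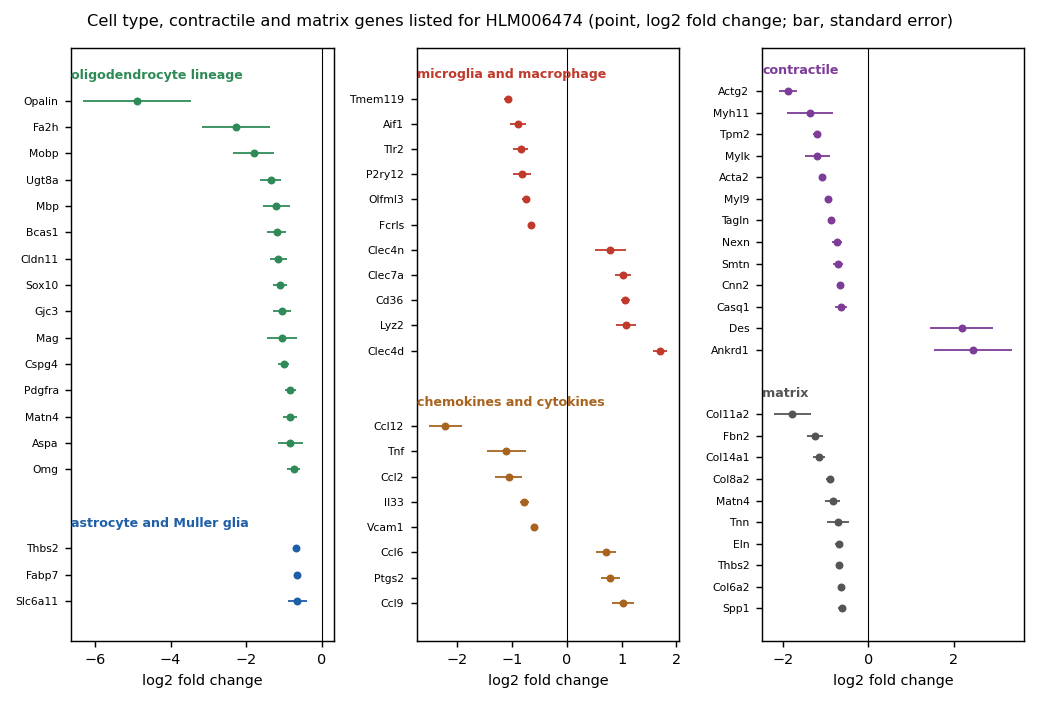
Log2 fold change of HLM006474 against vehicle (horizontal axis, scaled for each column, bars 1 standard error) for listed cell type markers, chemokines and cytokines, contractile and matrix genes (a few listed genes are not drawn). The oligodendrocyte lineage markers lie left of 0, and the microglia and macrophage markers lie on both sides, from -1.08 for Tmem119 to 1.70 for Clec4d.

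HLM006474 was set beside the other inhibitors of the study, SB431542, which blocks TGF-beta type I receptors, and Ro5-3335, which targets RUNX1 with its partner CBFB. All 3 comparisons share the same vehicle samples, so a vehicle value that is high or low enters each of them, and doses were not given. Where 2 tables list a gene, the values of the compounds were compared with a two-sided z test on the log2 values and their SEs, adjusted over those genes. Such genes passed the fold limit in both tables, so any pair of opposite sign had to differ by more than 1. For SB431542, 161 genes were shared, 18.8% of the HLM006474 table and 21.5% of the other, and 53 (32.9%) differed. For Ro5-3335, 210 genes were shared, 24.5% and 52.9% of the tables, and 20 (9.52%) differed, or 34 when the SEs are reduced for the shared vehicle samples.

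Replication genes fell in the tables of both HLM006474 and Ro5-3335, and some were lower under HLM006474. Cdc6 stood at -1.49 ± 0.13 under HLM006474 and -0.74 ± 0.12 under Ro5-3335 in the authors' deposited tables, a difference of -0.75 ± 0.18 (z test, adjusted p = 0.000911). Mcm2 differed by -0.42 ± 0.09 (adjusted p = 0.000238), Mcm3 by -0.54 ± 0.15 and Chaf1b by -0.57 ± 0.16 (adjusted p = 0.0121 for both, z test). Mcm5, Uhrf1 and Mki67 were also lower under HLM006474 beyond the threshold. Rrm2 stood at -0.94 ± 0.08 and -0.95 ± 0.08, and Orc1 at -0.87 ± 0.28 and -0.77 ± 0.28, in the authors' deposited tables. On the licensing list, 10 of 18 genes were lower in the Ro5-3335 table with a median of -0.67, and 0 were listed for SB431542. On the mitosis list, 24 of 103 were lower for Ro5-3335 and 2 higher for SB431542. Among all genes tested, 315 of 13561 were lower for Ro5-3335. For SB431542, 401 of 15169 were lower and 347 higher.

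Of the immediate early genes, 10 were higher and 1 lower for SB431542, and 8 were higher and 0 lower for Ro5-3335. Egr1 stood at 1.41 ± 0.09 under HLM006474, 0.82 ± 0.10 under SB431542 and 0.62 ± 0.10 under Ro5-3335 in the authors' deposited tables, and was higher under HLM006474 than under either (z test, adjusted p = 6.9e-05 and 8.94e-07). Egr2 stood at 2.01 ± 0.19, 0.97 ± 0.19 and 1.10 ± 0.19 in the same order in the authors' deposited tables, also higher in both tests. Arrdc3 went the other way against Ro5-3335, at 0.78 ± 0.08 and 1.33 ± 0.08 in the authors' deposited tables. The thiol and glutathione list had 14 higher genes for HLM006474, 2 for SB431542 and 0 for Ro5-3335. In the same order, the heme and iron list had 8, 3 and 0, and the NADPH list 3, 0 and 0. The detoxification list had 14, 2 and 0. Lower thiol genes were 1 for HLM006474 and 1 for SB431542. Lower heme and iron genes were 1 for HLM006474 and 2 for Ro5-3335, and SB431542 had 1 lower detoxification gene. Among all genes tested, 216 of 15169 were higher for HLM006474, 347 of 15169 for SB431542 and 82 of 13561 for Ro5-3335. At that last share, lists this short can hold 0. Slc40a1 was higher under SB431542 than under HLM006474, at 2.90 ± 0.15 and 2.02 ± 0.15 in the authors' deposited tables (z test, adjusted p = 0.00025), and Blvrb was lower, at 0.74 ± 0.13 and 1.28 ± 0.13. Hmox1, Srxn1, Nqo1, Gclm and Txnrd1 were not in the other tables, and since an unlisted gene has no value, these differences could not be tested. Contractile genes fell in all 3 tables: Acta2 stood at -1.09 ± 0.08 for HLM006474, -0.64 ± 0.08 for SB431542 and -1.19 ± 0.08 for Ro5-3335 in the authors' deposited tables.

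Against SB431542, signs differed for part of the shared genes. Of the 20 shared genes with opposite signs, 18 were lower under HLM006474 and higher under SB431542. Ccl2 stood at -1.06 ± 0.24 and 2.28 ± 0.22, and the urokinase gene Plau at -1.07 ± 0.08 and 1.16 ± 0.07 in the authors' deposited tables. Tnf, Gbp5, Il2rg, Aoah, Cdk18 and Aqp1 had the same pattern. Of the microglia and macrophage markers, Cd36 stood at 1.07 ± 0.09 and 1.33 ± 0.09 and P2ry12 at -0.82 ± 0.17 and -1.19 ± 0.17 in the authors' deposited tables. The reverse pattern was that of Cyp1b1, at 0.61 ± 0.03 and -0.61 ± 0.04, and of Scd4, at 0.78 ± 0.22 and -0.68 ± 0.24, in the authors' deposited tables. Some genes fell in both but farther under SB431542, with Tmem119 at -1.08 ± 0.07 and -4.00 ± 0.11 and the TGF-beta target Tgfbi at -1.04 ± 0.07 and -1.94 ± 0.08 in the authors' deposited tables. On the interferon list, 11 of 48 genes were higher for SB431542. Against Ro5-3335, 3 shared genes had opposite signs, Clec4n, Eef1a2 and Ptgfr, each higher under HLM006474.

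**Figure D5:**
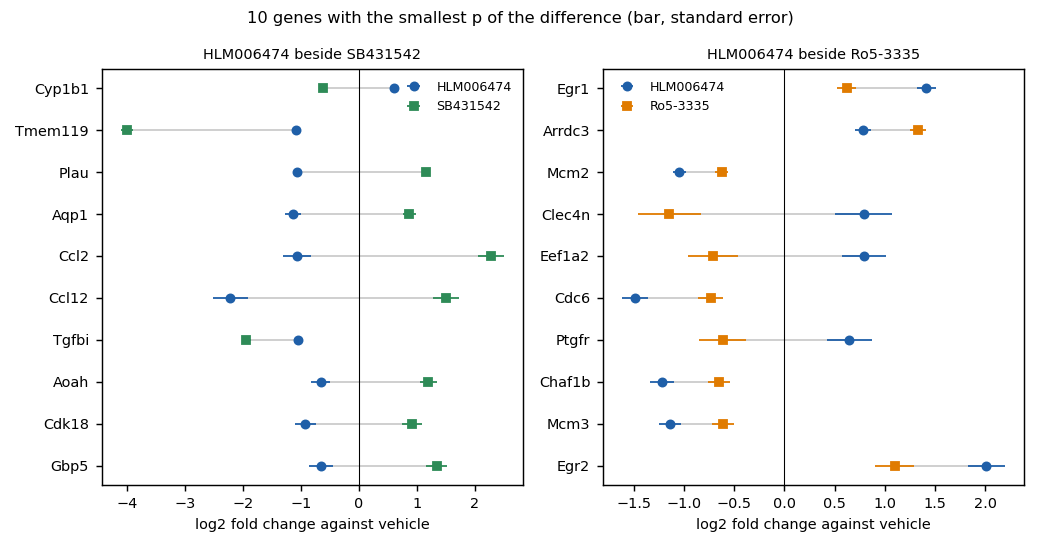
Log2 fold change against vehicle (horizontal axis, bars 1 standard error) under HLM006474 and under SB431542 (left) or Ro5-3335 (right) for the 10 shared genes with the smallest p of the difference. Ccl2 and Ccl12 lie on opposite sides of 0 under HLM006474 and SB431542, and Cdc6, Mcm2 and Mcm3 lie lower under HLM006474 than under Ro5-3335.

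Of the 856 genes, 551 were on none of the 41 lists. Among those with the smallest adjusted p were the lower genes Tcf19 (-0.95 ± 0.07), Fam111a (-0.86 ± 0.07), Fignl1 (-1.08 ± 0.09) and the chromatin ATPase Atad2 (-0.86 ± 0.08) in the authors' deposited table. Also lower were Elobl (-0.63 ± 0.04) and the cold-inducible RNA-binding protein gene Rbm3 (-0.70 ± 0.06), and the peptide ligand gene Apln (-0.76 ± 0.06) in the authors' deposited table. The glutamate transporter Slc1a1 stood at -1.13 ± 0.17, the water channel Aqp1 at -1.13 ± 0.13 and the thyroid hormone-binding protein Crym at -1.35 ± 0.13 in the authors' deposited table. Higher were Nadk2 (0.59 ± 0.04), which encodes the mitochondrial NAD kinase, the polyol enzyme Sord (0.74 ± 0.06), the bromodomain gene Brd2 (0.64 ± 0.05), Creg1 (0.81 ± 0.08) and Rnf128 (1.10 ± 0.11) in the authors' deposited table. Nadk2 is on another row as well, at 1.12 ± 0.26 with a mean count of 268 against 2205 in the first row of the authors' deposited table, and the name alone does not tell the rows apart.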

How the data were processed

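Expression was measured by RNA sequencing. Per the submitters' processing notes, CASAVA 1.8, STAR 2.7 and DESeq2 1.30.1 were used with genome build GRCm38. The read counter, annotation and strandedness are not stated in any source used. The deposited tables hold, for genes past the authors' limits, the mean normalised count, which is a signal scaled by the authors, the log2 fold change and its SE, the Wald score and the p-value with its adjusted value. Samples were grouped by their labels. The number of genes tested was recovered as the value that makes the ranks p × n / adjusted p whole within 0.02 (15169, whole for 81.1% of 360 rows checked, next best 11.7%). The mean counts of 161 and 211 rows shared with the other tables were equal. Differences between compounds were tested with a z test (scipy 1.17.1) with Benjamini-Hochberg adjustment, which treats both values as independent although they share vehicle samples; it and the recovery of n were tested on simulated data.

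The members and the 41 gene lists were chosen with earlier results of these data known. Named genes were the listed members of those lists, the 15 with the smallest adjusted p and the 15 with the largest change above the median count in each direction outside the lists, the 5 nearest each fold limit, and the 10 with the smallest p of each difference; the text names a part of them. Hist1h4m, Hist1h4n, Ftl1-ps1, Galnt2l, Gpr84, Slamf9 and Clec12a were chosen after their values were seen. The same holds for the genes of opposite sign between compounds and the families under other observations. RefSeq matched 842 of 856 rows. Alternatives were an adjusted p under 0.01, a log2 change of at least 1, a mean count of at least 50, genes on 1 list alone, SEs reduced for the shared vehicle (variance × 4/7) and other promoter windows. A few listed genes are not reported here by name. No table of single samples was used, so no depth per sample is given.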

Additional observations from a re-analysis of the deposited data

How the results depend on the processing

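No paired analysis was possible because the deposited tables hold no values of single samples, and leaving out each replicate could not be run for the same reason. With an absolute log2 change of at least 1, 74 genes were higher and 209 lower. With an adjusted p under 0.01 the numbers were 156 and 499, and with a mean count of at least 50 they were 171 and 500. The share of lower genes was 73.9% to 76.2% over these settings, beside 74.8% for all listed genes. With SEs reduced for the shared vehicle samples, 34 genes differed between HLM006474 and Ro5-3335 in place of 20, and 69 differed from SB431542 in place of 53. With a mean count of at least 50 these numbers were 20 and 48. Of 51 counts of list members by direction, 47 stayed within 1.5 times at an adjusted p under 0.01, 49 at a mean count of at least 50, and 43 without genes on several lists, but only 6 at a log2 change of at least 1, since most listed genes changed less than 2-fold. The 2 contractile risers and the contractile faller Myh11 were lost at an adjusted p under 0.01 and at a mean count of at least 50. Counting 250 bases before the start alone, 55.6% of licensing promoters held an E2F word, beside 2.72% of protein-coding ones. Genes with 1 promoter entry, a setting chosen after seeing the data, gave 75% and 2.91%. The folds of the 11 genes with SEs over 1 are imprecise.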

Other observations

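Several gene families lay in the authors' deposited table with all their listed members on 1 side, and they were noticed after the values were seen, with no test of the family. Genes of receptors for transmitters and peptides were lower, with Grin2b at -1.72 ± 0.58, Grm3 at -1.47 ± 0.43, Grm5 at -0.83 ± 0.22, Grm8 at -1.02 ± 0.30 and Gabbr2 at -0.66 ± 0.20 in the authors' deposited table. The acetylcholine receptor genes Chrna4 and Chrm1 stood at -1.17 ± 0.30 and -1.28 ± 0.49, and Htr2c, Npy1r and Oxtr at -1.66 ± 0.62, -0.82 ± 0.28 and -0.97 ± 0.30 in the authors' deposited table. Neuron and photoreceptor markers were mostly not listed: 4 of 38 (10.5%) were lower and 0 higher, beside 4.22% lower among all genes tested. These 4 were Gad2 -1.86 ± 0.75, Calb1 -1.07 ± 0.30, Gap43 -0.80 ± 0.08 and Syt1 -0.70 ± 0.24 in the authors' deposited table. Gad2 rests on a mean count of 7.26, with a DESeq2 adjusted p of 0.0499. The other 34 markers, Tubb3, Snap25, Map2 and Rbfox3 among them, have no value. Whether these cell types had a part in the receptor values was not tested. Most of the receptor genes rest on mean counts under 50, and the authors' deposited table gives Grm5 a mean of 160 and Gabbr2 132. All 15 listed genes with a potassium channel name (Kcn) were lower, with a median of -1.08. The 4 listed Rgs genes, which encode regulators of G protein signalling, were lower, with Rgs8 at -1.41 ± 0.17 and Rgs4 at -0.95 ± 0.17 in the authors' deposited table. The gap junction genes Gja5 (-1.68 ± 0.50) and Gjc3 (-1.05 ± 0.24) were lower in the authors' deposited table, on mean counts of 19.8 and 121.

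On the higher side stood 3 Ypel genes, Ypel1 at 1.00 ± 0.26, Ypel4 at 0.70 ± 0.27 and Ypel5 at 0.67 ± 0.07, and 3 genes of the Cd300 receptor family of myeloid cells, from 0.65 for Cd300ld3 to 0.87 for Cd300a in the authors' deposited table. Of the listed rows that RefSeq names as pseudogenes, 7 were higher and 0 lower, and of those named transcribed pseudogenes 1 was higher and 1 lower in the authors' deposited table.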
